A study of Mus musculus with 16 samples.

Results

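Cardiac fibroblasts of control mice were compared with and without a fibrotic stimulus. The samples are the control columns of a study of the transcription factor TCF21, 9 of its 16 RNA-seq libraries, and were picked by their labels. Samples, gene lists and rules were, however, set with earlier results of these data known. The 3 uninjured libraries and 3 of the infused libraries came from mice labelled Tcf21-MerCreMer, and the other 3 infused libraries from mice labelled Pdgfra-creERT (Pdgfra-CreERT2 in the study's design text). All mice were 8 to 12 weeks old, had received tamoxifen and carried a Rosa26 reporter that makes enhanced green fluorescent protein once Cre has removed its stop cassette. The infused mice then received angiotensin II and phenylephrine for 1 week, and the uninjured mice were taken 2 weeks after tamoxifen. The controls carried the Cre without the floxed Tcf21 or the Col1a1-TCF21 transgene that the study's other groups carry, as the design text describes them.

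The sort on the green reporter takes the cells in which a line's own Cre acted, so a library holds the cells reached through Tcf21 in one line and through Pdgfra in the other. The 3 groups lie in 3 deposited tables that were normalized separately. Infusion and table cannot be told apart in either comparison, and in the comparison with the Pdgfra-creERT line the Cre line cannot be told apart from them either. The interval from tamoxifen to the sort is given in weeks only for the uninjured mice. Whether the 3 libraries of a group stem from different mice is not in the labels. Each p-value therefore measures the spread between libraries, which may be technical, moderated by the spread of other genes.

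Resident cardiac fibroblasts keep the collagen network between the muscle fibres and are marked by Pdgfra and Tcf21. Angiotensin II acts through its type 1 receptor and phenylephrine through alpha-1 adrenergic receptors, and together they raise blood pressure and drive interstitial fibrosis in mice. Fibroblasts so activated are known to divide, to take up contractile proteins such as smooth muscle alpha-actin (Acta2) and to secrete a provisional matrix of fibronectin, periostin, tenascins and fibrillar collagen, and a later state with cartilage and tendon genes such as Comp, Fmod and Cilp has been named the matrifibrocyte. Transforming growth factor beta (TGF-beta) is a central signal for these steps.

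Levels are stated as ranks. The tables list 18634 (uninjured), 17303 (infused Tcf21-MerCreMer) and 17730 (infused Pdgfra-creERT) genes, and the 16135 genes listed in all 3 were ranked within each library, with 1 for the highest value and tied zeros at a shared rank. Ranks follow counts that are not corrected for transcript length, so a rank is compared between libraries for 1 gene and not between genes. For the tests each rank was given the mean log2 value that the 9 libraries hold at that rank, which is called the rank-matched log2 scale; on it a difference of 1 is a 2-fold change of the typical value between those ranks. Pairs of differences below are given with the infused Tcf21-MerCreMer group first and the infused Pdgfra-creERT group second, each minus the uninjured group, with the standard error (SE) after ± where it is shown (n = 3 and 3). A gene is called higher or lower in both where limma's Benjamini-Hochberg adjusted p lay below 0.05 in each comparison with the same sign.

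The libraries summed to between 28218003 and 40970391 normalized counts. Spearman's rho over the 16135 genes was 0.990 to 0.991 between uninjured libraries, 0.982 to 0.989 and 0.986 to 0.991 within the infused groups, 0.958 to 0.966 between the infused groups, 0.924 to 0.951 between the uninjured and the infused Tcf21-MerCreMer libraries and 0.952 to 0.969 between the uninjured and the infused Pdgfra-creERT libraries. The fibroblast genes Col1a1, Col1a2, Dcn, Gsn and Pdgfra ranked at or above 347 in every library (Pdgfra held the lowest of these ranks), and Tcf21 between 666 and 3254. Gsn, which encodes the actin-severing protein gelsolin, was the highest gene of each uninjured library with 6.88% to 7.74% of its summed counts, and Col3a1 was the highest of each infused library with 3.57% to 5.13%.

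Of 14843 genes tested, 6105 passed between the infused Tcf21-MerCreMer and the uninjured libraries, 3227 higher (21.7%) and 2878 lower (19.4%). Between the infused Pdgfra-creERT and the uninjured libraries 5825 passed, 2745 higher (18.5%) and 3080 lower (20.8%). Between the 2 infused groups 618 passed (4.16%), 342 of them higher in the Pdgfra-creERT group. The comparisons with the uninjured libraries share those libraries; 2236 genes (15.1%) were higher in both, 2103 (14.2%) lower in both and 72 passed in opposite directions. All 6 infused libraries lay above all 3 uninjured libraries for 2844 genes (19.2%) and below them for 3033 (20.4%). Infused and uninjured libraries did not overlap for 2198 of the 2236 genes higher in both and 2077 of the 2103 lower in both. For a gene so called, a lack of overlap therefore adds little to the call.

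The differences were larger among higher than among lower genes. Among genes higher in both, 866 differed by more than 1 in each comparison, 114 by more than 3 and 59 by more than 4; among genes lower in both these counts were 559, 9 and 1. The mean of at least 10 is taken over 6 infused and 3 uninjured libraries. Among genes whose lower group alone met it the counts were 761, 82 and 40 higher and 518, 8 and 1 lower. The infused groups differed from each other at 69 of the 2236 higher and 85 of the 2103 lower genes. Over all genes tested the median difference was 0.003 and -0.061 on the rank-matched scale. On the deposited scale it was -0.536 and -0.12, and there 1192 genes were higher and 8766 lower (12.0% of calls higher) with the Tcf21-MerCreMer group and 2471 higher and 3699 lower (40.0%) with the Pdgfra-creERT group. Between the infused groups 97.9% of the 8137 calls on the deposited scale were higher in the Pdgfra-creERT group, 66.6% of 586 after median-ratio scaling, against 55.3% on the rank-matched scale.

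**Figure D1:**
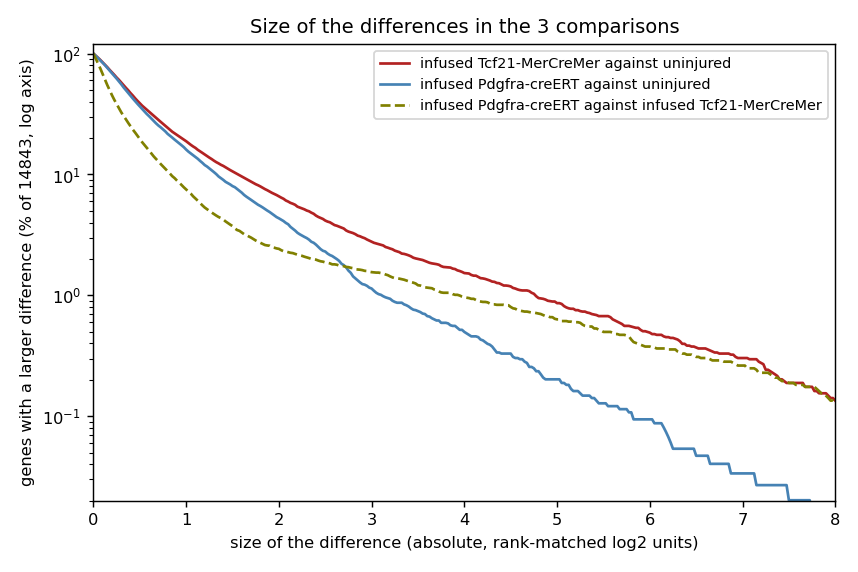
Share of the 14843 genes tested whose difference exceeds the size on the x axis (absolute, rank-matched log2 units), with the share on a log axis, for the 3 comparisons. Differences over 1 were held by 18.8% of genes with the infused Tcf21-MerCreMer group, 16.1% with the infused Pdgfra-creERT group and 7.51% between the infused groups, and over 3 by 412, 169 and 231 genes.

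Where a gene named below lies outside the naming rule (a fixed panel, the largest shared differences and up to 4 members of each gene list), it was chosen after its values were seen; these include Gsn, Tagln, Mki67, Spp1, Agtr1a, Pcna, Mfap2, Fbln2, Tgfbr1, Actb and other list members given to show a list's exceptions. Positions come from the GENCODE vM21 annotation (GRCm38). Counts of list members stand beside 15.1% of all genes tested higher in both and 14.2% lower in both, and several lists lay near these shares. The lists were set with earlier results of these data known, so their counts describe these data and are no independent support.

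The genes known from activated cardiac fibroblasts and matrifibrocytes were higher after infusion in both lines. Of 33 tested members of this list, 29 were higher in both and 0 lower in both, with median differences of 3.18 and 2.93. The count of 29 was the same without any 1 library. Their summed share of all counts was 0.619% to 0.713% in the uninjured libraries, 5.43% to 8.34% in the infused Tcf21-MerCreMer libraries and 5% to 7.02% in the infused Pdgfra-creERT libraries. In bulk RNA, more cells of a state and more RNA of its genes per cell cannot be told apart, nor can fewer cells and less RNA per cell. The 4 members outside the count were Chad, Fap, Ccn5 and Angptl4.

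Postn (chromosome 3, 54361109 to 54391037, plus strand) encodes periostin, a matricellular protein that binds collagen and integrins. It ranked 215, 195 and 136 in the uninjured libraries, 4, 2 and 2 in the infused Tcf21-MerCreMer libraries and 2, 3 and 5 in the infused Pdgfra-creERT libraries. No infused library overlapped an uninjured one, and Postn was among the 5 highest genes of every infused library. Its differences were 4.89 ± 0.27 and 4.66 ± 0.26 (adjusted p = 1.09e-05 and 4.38e-06).

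Cthrc1 (chromosome 15, 39076932 to 39087121, plus strand) encodes a secreted collagen triple helix repeat protein that marks matrix-producing fibroblasts in scars. It ranked 12866, 12549 and 11667 in the uninjured libraries, 222, 145 and 119 in the infused Tcf21-MerCreMer libraries and 139, 118 and 284 in the infused Pdgfra-creERT libraries. No infused library fell below rank 284 and no uninjured one reached above 11667. Its differences of 9.33 ± 0.30 and 9.27 ± 0.32 were the largest that both infused groups shared among the genes the naming rule admits (adjusted p = 6.28e-07 and 2.89e-07).

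Comp, Fmod and Cilp, known for cartilage and tendon matrix, were higher with Postn. Comp (chromosome 8, 70373558 to 70382066, plus strand), a pentameric thrombospondin that binds collagen, ranked 2159, 1706 and 1523 in the uninjured libraries, 159, 137 and 87 in the infused Tcf21-MerCreMer libraries and 166, 115 and 192 in the infused Pdgfra-creERT libraries. Fmod (chromosome 1, 134037254 to 134048277, plus strand), fibromodulin, a collagen-binding proteoglycan, ranked 3061, 2044 and 1733 in the uninjured libraries, 102, 76 and 61 in the infused Tcf21-MerCreMer libraries and 80, 54 and 91 in the infused Pdgfra-creERT libraries. Cilp (chromosome 9, 65265180 to 65280605, plus strand), cartilage intermediate layer protein, ranked 209, 222 and 140 in the uninjured libraries, 9, 7 and 7 in the infused Tcf21-MerCreMer libraries and 10, 10 and 9 in the infused Pdgfra-creERT libraries. Each gene's infused libraries lay wholly above its uninjured ones and the 2 infused groups overlapped each other. The differences were 3.14 and 2.88 for Comp, 3.98 and 4.05 for Fmod and 3.60 and 3.27 for Cilp.

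**Figure D2:**
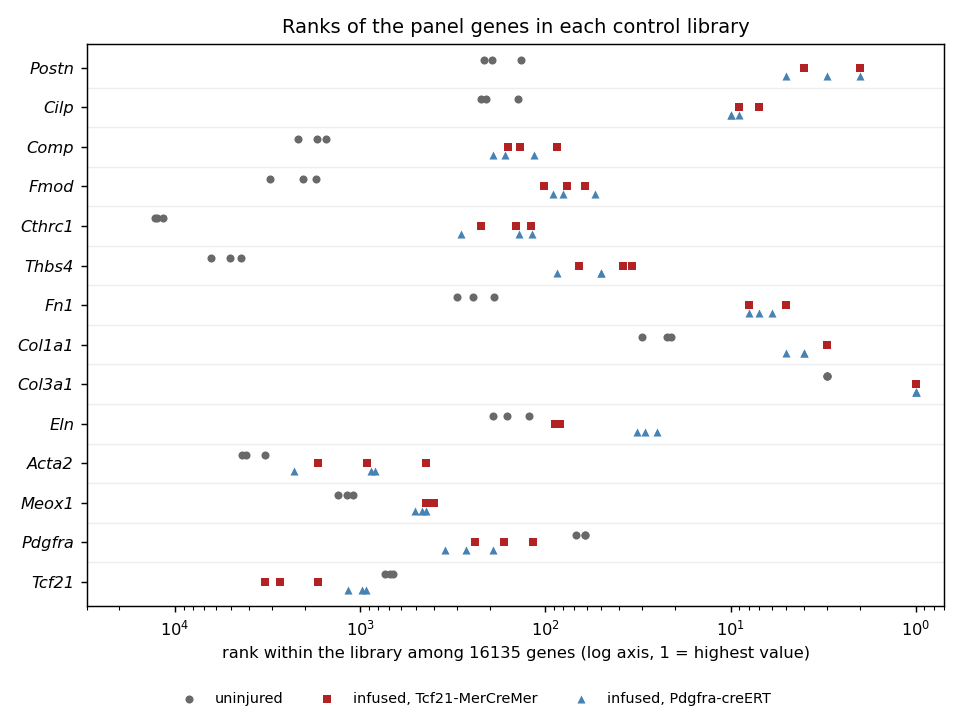
Rank of 14 genes in each of the 9 control libraries among 16135 genes, on a log axis with rank 1, the highest value, at the right; each point is 1 library. From Postn to Meox1 every infused library lies to the right of every uninjured one, and for Pdgfra and Tcf21 every infused library lies to the left.

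Other secreted activation genes ranked as follows. Thbs4 (chromosome 13, 92751590 to 92794818, minus strand), a thrombospondin of tendon and stressed heart, ranked 6424, 5032 and 4410 in the uninjured libraries, 66, 38 and 34 in the infused Tcf21-MerCreMer libraries and 50, 50 and 87 in the infused Pdgfra-creERT libraries. Tnc, tenascin C of the provisional matrix, had median ranks 8031, 128 and 141 in the uninjured, infused Tcf21-MerCreMer and infused Pdgfra-creERT groups and differences of 5.78 and 5.76. Fn1, fibronectin, ranked 300, 245 and 190 without injury, 8, 5 and 5 in the infused Tcf21-MerCreMer group and 7, 6 and 8 in the infused Pdgfra-creERT group, with differences of 4.24 ± 0.20 and 4.03 ± 0.15. For none of these 3 genes did an infused library overlap an uninjured one. Ltbp2, a latent TGF-beta binding protein (5.09 and 5.15), Ptn, the growth factor pleiotrophin (3.57 and 4.02), Spp1, osteopontin (5.70 and 4.52), and Piezo2, a mechanically gated channel (3.23 and 2.93), were also higher in both.

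Ddah1, an enzyme that degrades the nitric oxide synthase inhibitor asymmetric dimethylarginine, ranked 10787, 10587 and 9885 in the uninjured libraries, 376, 251 and 157 in the infused Tcf21-MerCreMer libraries and 178, 144 and 289 in the infused Pdgfra-creERT libraries. Ddah1 did not overlap between infused and uninjured libraries and differed by 6.87 ± 0.28 and 7.13 ± 0.24. Runx1, a transcription factor of activated fibroblasts, had median ranks 11116, 1649 and 2110 and differences of 5.19 and 4.70. Meox1, a homeobox factor reported in stressed cardiac fibroblasts, ranked 1327, 1178 and 1088 without injury, 399, 442 and 418 in the infused Tcf21-MerCreMer group and 504, 444 and 463 in the infused Pdgfra-creERT group, with smaller differences of 1.25 ± 0.08 and 1.11 ± 0.09. Igf1, insulin-like growth factor 1, had the smallest difference of the 29 with the Tcf21-MerCreMer group (0.80 and 0.92), and Mfap5, a microfibril protein, with the Pdgfra-creERT group (1.01 and 0.86).

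The exceptions were measured members too. Fap, the surface protease fibroblast activation protein, ranked 1716, 1745 and 1560 in the uninjured libraries, 1546, 1297 and 1433 in the infused Tcf21-MerCreMer libraries and 2639, 2439 and 2664 in the infused Pdgfra-creERT libraries: it was not past the threshold with the Tcf21-MerCreMer group (0.19, adjusted p = 0.0906) and lower with the Pdgfra-creERT group (-0.54, adjusted p = 0.000692). Chad, chondroadherin of cartilage, passed with the Pdgfra-creERT group, where it was higher, and not with the Tcf21-MerCreMer group (-0.63 and 1.46), and the infused groups differed from each other at Fap (adjusted p = 0.00179) and Chad (adjusted p = 0.0197). Angptl4, a lipase inhibitor, ranged from rank 827 to 7041 across the infused libraries and passed in neither comparison (0.38 and -0.58).

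Collagen genes took a larger share of the RNA after infusion. The 9 fibrillar collagen genes summed to 1.77% to 2.08% of counts in uninjured libraries, 8.38% to 9.62% in the infused Tcf21-MerCreMer libraries and 7.1% to 10.1% in the infused Pdgfra-creERT libraries. Of these 9 genes 8 were higher in both and 1 lower in both (medians 1.44 and 1.71). Col1a1, the alpha-1 chain of type I collagen, ranked 30, 21 and 22 in the uninjured libraries, 3, 3 and 3 in the infused Tcf21-MerCreMer libraries and 5, 4 and 4 in the infused Pdgfra-creERT libraries. Col3a1, the chain of type III collagen, ranked 3, 3 and 3 without injury, 1, 1 and 1 in the infused Tcf21-MerCreMer group and 1, 1 and 1 in the infused Pdgfra-creERT group. Col3a1 did not overlap between infused and uninjured libraries and differed by 1.71 ± 0.28 and 1.71 ± 0.23. Its rank was the same in every library of a group, so on this scale it had no spread between libraries. Its SE rest on the variance that limma borrows from other genes, and its equal differences follow from the equal ranks. On a percentile scale of the ranks, which holds the highest genes close together, Col1a1 and Col3a1 did not pass. The exception was Col5a3, a minor type V chain (-0.36 and -0.49).

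Col11a1, a type XI chain that nucleates thin fibrils in cartilage, ranked 12510, 11159 and 11654 in the uninjured libraries, 794, 431 and 356 in the infused Tcf21-MerCreMer libraries and 1444, 1066 and 2450 in the infused Pdgfra-creERT libraries. Its groups did not overlap, and its differences of 7.39 ± 0.36 and 6.03 ± 0.34 were the largest of the fibrillar collagens. The type V chain gene Col5a2 (2.44 and 2.45) and Col5a1 (1.03 and 1.13) were also higher in both. Beyond the fibril-forming chains, 15 of 27 tested collagen genes were higher in both and 3 lower in both (medians 0.95 and 0.95). Col12a1, which coats fibrils under tension, had median ranks 7421, 99 and 187 and differences of 5.69 and 4.83. Col22a1, of tendon-muscle junctions (5.89 and 5.03), Col7a1, of anchoring fibrils (6.48 and 6.14), Col9a2, of cartilage (4.33 and 5.24), and Col16a1 (2.39 and 2.45) were higher in both. Col7a1 had a median rank of 15406 in the uninjured libraries, so its differences rest on few normalized counts there. The lower members were the basement membrane chains Col4a3 (-0.77 and -0.80) and Col4a4 (-1.15 and -0.97) and Col6a6 (-1.52 and -1.28).

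The enzymes that modify and cross-link collagen were higher in part. Of 35 tested members, 19 were higher in both and 3 lower in both (medians 0.59 and 0.44). Lox, lysyl oxidase, which starts the cross-links of collagen and elastin, ranked 2748, 2606 and 2567 in the uninjured libraries, 90, 45 and 31 in the infused Tcf21-MerCreMer libraries and 46, 40 and 83 in the infused Pdgfra-creERT libraries. The infused libraries of both lines lay above all uninjured ones at Lox, with differences of 4.69 ± 0.26 and 4.63 ± 0.18 (adjusted p = 9.67e-06 and 5.64e-07). P4ha3, a prolyl hydroxylase chain, ranked 12193, 11542 and 11600 in the uninjured libraries, 1545, 1033 and 725 in the infused Tcf21-MerCreMer libraries and 1522, 1032 and 1880 in the infused Pdgfra-creERT libraries, whereas its relative P4ha2 was lower in both (-0.24 and -0.73) and P4ha1 had differences of -0.19 and -0.33. Plod2, the lysyl hydroxylase of telopeptide cross-links (2.22 and 1.94), P3h2, a prolyl 3-hydroxylase (1.39 and 1.39), Loxl3 (2.36 and 2.00) and the collagen chaperone Serpinh1 (1.05 and 0.78) were higher in both. Pcolce2, a procollagen C-proteinase enhancer, was lower in both (-1.42 and -1.13).

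Small leucine-rich proteoglycans, which space collagen fibrils, did not move one way: of 17 tested, 4 were higher in both and 5 lower in both (medians -0.36 and -0.04, but 0.05 for the second after median-ratio scaling). Without the first and the second uninjured library in turn 3 and 2 were lower. Aspn, asporin (2.22 and 1.92), Bgn, biglycan (0.74 and 0.63), and Ogn, osteoglycin (0.45 and 0.49), were higher with Fmod. Dcn, decorin, ranked 2, 2 and 2 in the uninjured libraries, 6, 9 and 9 in the infused Tcf21-MerCreMer libraries and 8, 8 and 6 in the infused Pdgfra-creERT libraries, with lower values in all 6 infused libraries and differences of -1.67 ± 0.24 and -1.54 ± 0.19. Lum, lumican (-1.05 and -0.58), Prelp (-0.95 and -0.69), Podn (-1.22 and -1.40) and Omd (-0.42 and -0.38) were also lower in both.

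Among 41 matrix glycoproteins 20 were higher in both and 9 lower in both (medians 0.71 and 0.79). Besides the genes given above, Matn4, a matrilin that links matrix filaments, ranked 11499, 11849 and 11087 in the uninjured libraries, 3045, 4195 and 3313 in the infused Tcf21-MerCreMer libraries and 2390, 1761 and 3815 in the infused Pdgfra-creERT libraries (4.71 and 5.14). Ccn2, connective tissue growth factor (1.74 and 1.42), Thbs1, thrombospondin 1 (2.10 and 1.48), Agrn (1.44 and 1.70) and Srpx2 (1.29 and 1.17) were higher in both. The lower members included Smoc2 (chromosome 17, 14279506 to 14404790, plus strand), a calcium-binding matrix protein, which ranked 4, 7 and 5 without injury, 41, 74 and 95 in the infused Tcf21-MerCreMer group and 83, 101 and 61 in the infused Pdgfra-creERT group. It was among the highest genes of every uninjured library and lower in all 6 infused ones, with differences of -2.82 ± 0.27 and -3.03 ± 0.20. Sparcl1 (-1.23 and -1.38), Emilin2 (-1.55 and -1.74) and Tgfbi, TGF-beta induced protein (-1.80 and -1.39), were lower in both.

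Of 19 elastic fibre genes 12 were higher in both and 2 lower in both (medians 0.83 and 0.88). Eln, tropoelastin, ranked 162, 123 and 192 in the uninjured libraries, 89, 83 and 86 in the infused Tcf21-MerCreMer libraries and 32, 25 and 29 in the infused Pdgfra-creERT libraries. Its infused groups did not overlap each other either: the differences were 0.72 ± 0.15 and 1.95 ± 0.15, and the infused groups differed by 1.23 (adjusted p = 0.000566). Fbn2, the fibrillin of early microfibrils, ranked 8919, 8956 and 9446 without injury, 1157, 889 and 636 in the infused Tcf21-MerCreMer group and 1242, 942 and 1500 in the infused Pdgfra-creERT group, with differences of 4.30 ± 0.17 and 3.93 ± 0.15. Fbn1, the adult fibrillin (1.33 and 1.25), Ltbp3 (1.27 and 1.53) and Mfap4 (1.85 and 2.41) were higher in both. Efemp1, a short fibulin, ranked 425, 432 and 619 without injury, 2168, 5072 and 7825 in the infused Tcf21-MerCreMer group and 4096, 6590 and 2506 in the infused Pdgfra-creERT group. It was lower in both (-3.04 ± 0.53 and -2.78 ± 0.36), as was Ltbp4 (-1.45 and -1.12).

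Genes known from cartilage and tendon were higher for 13 of 28 tested members and lower for 4 (medians 0.66 and 1.11). Scx, scleraxis, the transcription factor of tendon cells, ranked 11811, 12414 and 12204 in the uninjured libraries, 3330, 3542 and 1888 in the infused Tcf21-MerCreMer libraries and 4109, 3262 and 4785 in the infused Pdgfra-creERT libraries. All 6 infused libraries lay above the uninjured ones, with differences of 5.67 ± 0.25 and 5.14 ± 0.21. Tnmd, tenomodulin, a membrane protein of tendon cells, was higher in both (4.15 and 3.65). The cartilage factor Sox9 had small differences of 0.37 and 0.38, the first below 0 (-0.155) on the deposited scale, and Clec3b, tetranectin, was lower in both (-2.51 and -2.24).

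Genes high in resting cardiac fibroblasts were lower after infusion. Of 36 tested members 28 were lower in both and 2 higher in both (Col15a1 and Sox9), with medians of -1.33 and -1.32. Leaving out 1 library gave 24 to 30 lower members, and 0 higher ones without the first uninjured or the first Pdgfra-creERT library. On a percentile scale of the ranks 15 members were lower in both. The summed share was 13.2% to 14.2% in the uninjured, 2.58% to 5.98% in the infused Tcf21-MerCreMer and 3.45% to 6.76% in the infused Pdgfra-creERT libraries, and most of it in the uninjured libraries was Gsn. Gsn ranked 1, 1 and 1 in the uninjured libraries, 2, 8 and 15 in the infused Tcf21-MerCreMer libraries and 4, 7 and 2 in the infused Pdgfra-creERT libraries, with differences of -2.60 and -2.03.

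Pdgfra and Tcf21, the genes that drive Cre in the lines, were lower in both. Pdgfra, the receptor of platelet-derived growth factor A, ranked 68, 61 and 61 in the uninjured libraries, 117, 168 and 239 in the infused Tcf21-MerCreMer libraries and 269, 347 and 191 in the infused Pdgfra-creERT libraries, with differences of -1.17 ± 0.20 and -1.70 ± 0.15. Tcf21 (chromosome 10, 22817281 to 22820174, minus strand), a basic helix-loop-helix factor of the fibroblast lineage, ranked 693, 666 and 735 in the uninjured libraries, 1686, 2714 and 3254 in the infused Tcf21-MerCreMer libraries and 979, 1162 and 931 in the infused Pdgfra-creERT libraries. Its differences were -1.47 ± 0.19 and -0.42 ± 0.09 (adjusted p = 0.000826 and 0.00448), and the infused groups, which carry different Cre lines, differed by 1.06 (adjusted p = 0.026). The difference with the Pdgfra-creERT group did not pass with all 9 libraries in 1 fit. That between the infused groups did not pass without the second Tcf21-MerCreMer library or without any 1 of the Pdgfra-creERT libraries (0.875 to 1.29 over the 6 libraries left out in turn). How a Cre allele bears on the counts of its own locus was not tested.

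Inmt, an indolethylamine methyltransferase, ranked 404, 492 and 526 in the uninjured libraries, 3059, 6567 and 10621 in the infused Tcf21-MerCreMer libraries and 6470, 9095 and 1837 in the infused Pdgfra-creERT libraries. Inmt differed by -4.08 ± 0.84 and -3.43 ± 0.66. Its infused libraries spread from rank 1837 to 10621, and none reached the uninjured ranks. Cd34 (-1.42 and -1.36) and Ly6a (-1.59 and -1.45), surface proteins of progenitor-like fibroblasts, Scara5, a ferritin receptor (-2.58 and -2.11), Dpep1, a dipeptidase (-2.05 and -1.64), Cxcl14, a chemokine (-2.18 and -1.60), and the lipid transporters Abca8a (-1.11 and -1.33) and Abca8b (-3.09 and -1.40) were lower in both. Hsd11b1, which activates glucocorticoids, ranked 218, 267 and 256 in the uninjured libraries, 13297, 16107 and 13370 in the infused Tcf21-MerCreMer libraries and 3226, 4766 and 1430 in the infused Pdgfra-creERT libraries; the infused Tcf21-MerCreMer table lists it at or near 0, and the infused groups differed (adjusted p = 0.00596). Pi16, Wif1, Bmper, Lamc1, Fbln1 and Fgl2 did not pass in the same direction in both.

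**Figure D3:**
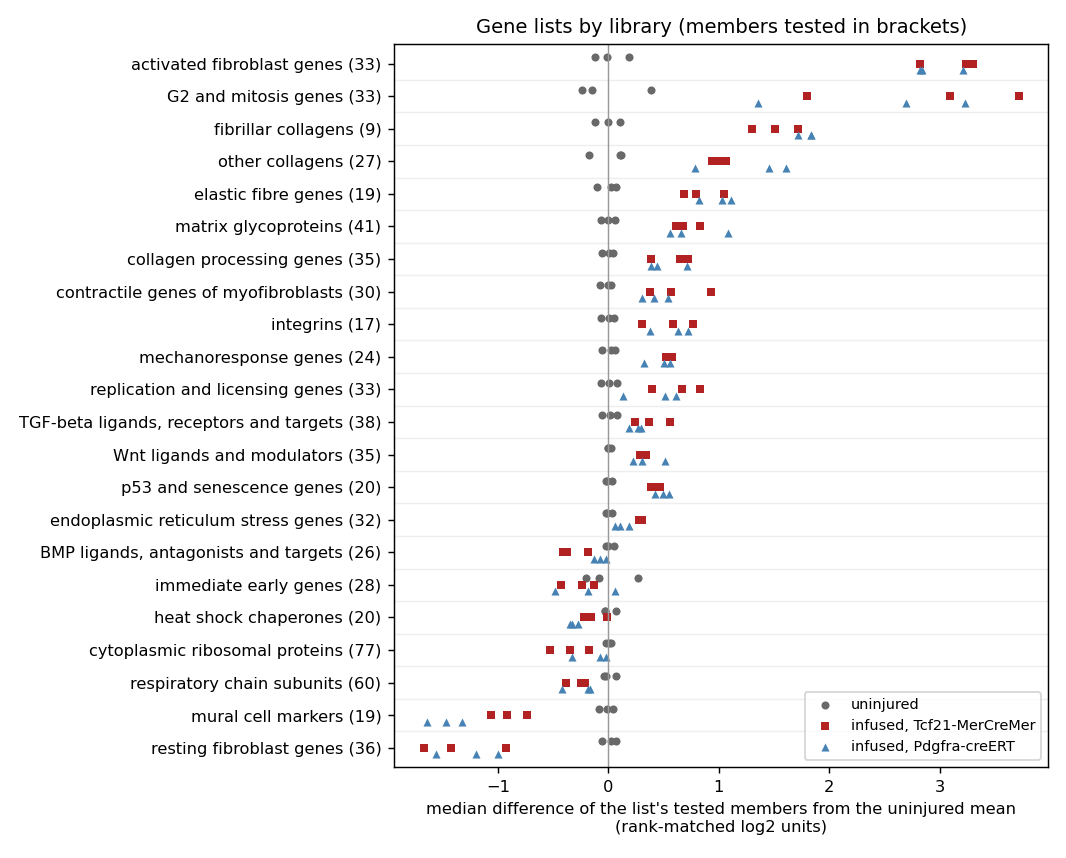
Median difference of each list's tested members from the mean of the uninjured libraries, in rank-matched log2 units, with 1 point for each library and the number of members in brackets, for a selection of the lists. Among the lists plotted, the activated list and the G2 and mitosis list lie farthest right in 5 of the 6 infused libraries (in the third Pdgfra-creERT library the fibrillar collagens come before G2 and mitosis), the mural and resting lists lie farthest left, and the infused points of the immediate early list run from -0.481 to 0.059.

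The infused libraries of a group differed among themselves. For activated genes the library medians were 2.83, 3.24 and 3.31 in the Tcf21-MerCreMer group and 2.82, 3.21 and 2.84 in the Pdgfra-creERT group (replicates 1 to 3). For resting genes they were -0.93, -1.43 and -1.67, and -1.20, -1.56 and -1.003. The first Tcf21-MerCreMer and the third Pdgfra-creERT replicate lay nearest to the uninjured libraries for resting genes, and the same held for Inmt, Ces1d, Efemp1 and Gsn.

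Contractile and adhesion genes of myofibroblasts were higher for 16 of 30 tested members and lower for 2 (medians 0.59 and 0.44). Acta2 (chromosome 19, 34241090 to 34255590, minus strand), smooth muscle alpha-actin, ranked 4129, 3251 and 4355 in the uninjured libraries, 1698, 924 and 444 in the infused Tcf21-MerCreMer libraries and 879, 832 and 2287 in the infused Pdgfra-creERT libraries. All infused libraries lay above the uninjured ones, but they spread widely, and its differences of 1.88 ± 0.35 and 1.52 ± 0.28 (adjusted p = 0.00439 and 0.00251) carried larger errors than those of Postn. Tagln, transgelin (2.88 and 2.81), the actin cross-linker Actn1 (3.26 and 2.5015), the LIM protein Csrp2 (2.28 and 2.12), non-muscle myosin Myh10 (1.38 and 1.48) and Vcl, vinculin (1.11 and 0.99), were higher in both.

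Palld, palladin, an actin-bundling scaffold of stress fibres, ranked 9442, 9535 and 9145 in the uninjured libraries, 730, 525 and 392 in the infused Tcf21-MerCreMer libraries and 573, 503 and 944 in the infused Pdgfra-creERT libraries. It did not overlap between infused and uninjured libraries and had the largest differences of the contractile list (5.06 ± 0.18 and 4.83 ± 0.17). Lmod1, leiomodin of smooth muscle (-1.06 and -1.33), and Actg1, a cytoplasmic actin (-0.65 and -0.57), were lower in both. Cnn1, calponin of smooth muscle, had differences of 1.34 and 1.21 without passing in either comparison (adjusted p = 0.0867 and 0.132). Actb, the other cytoplasmic actin, ranked 198, 221 and 248 without injury, 34, 35 and 19 in the infused Tcf21-MerCreMer group and 270, 251 and 259 in the infused Pdgfra-creERT group: it was high in the Tcf21-MerCreMer table alone.

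Genes of mechanical sensing were higher for 14 of 24 tested members and lower for 2 (medians 0.56 and 0.47). Piezo1, a stretch-gated cation channel, ranked 4419, 3979 and 4149 without injury, 1090, 754 and 759 in the infused Tcf21-MerCreMer group and 977, 797 and 1043 in the infused Pdgfra-creERT group. Piezo1 did not overlap between infused and uninjured libraries and differed by 2.01 ± 0.12 and 1.92 ± 0.10. The YAP and TAZ pathway members Tead2 (0.82 and 0.66), Tead3 (0.92 and 0.84), Wwtr1 (TAZ, 0.68 and 0.49) and Ajuba (1.30 and 1.40) and the targets Ankrd1 (2.84 and 2.52) and Ccn2 were higher in both, whereas Ccn1, another target, had differences of -0.03 and -0.01 without passing. Rhoa (-0.23 and -0.35) and Rock1 (-0.49 and -0.47) were lower in both. Of 17 integrin genes 9 were higher in both and 0 lower in both (medians 0.63 and 0.56); Itga11, the collagen-binding alpha-11 chain (1.13 and 0.97), Itgb3 (1.02 and 0.99), Itgb5 (0.75 and 0.89) and the integrin-like Itgbl1 (1.16 and 1.28) had the smallest p.

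TGF-beta ligands, receptors and targets were higher for 14 of 38 tested members and lower for 7 (medians 0.43 and 0.30, but -0.17 for the first on the deposited scale). Among ligands, Tgfb3 ranked 790, 597 and 699 without injury, 128, 110 and 112 in the infused Tcf21-MerCreMer group and 111, 90 and 123 in the infused Pdgfra-creERT group (2.17 ± 0.10 and 2.27 ± 0.12). Tgfb1 ranked 6924, 7300 and 6931 without injury, 4061, 3404 and 2956 in the infused Tcf21-MerCreMer group and 4061, 4295 and 3694 in the infused Pdgfra-creERT group (1.51 ± 0.13 and 1.27 ± 0.10). Neither overlapped between infused and uninjured libraries, while Tgfb2 was lower in both (-0.79 and -0.65). Of receptors, Tgfbr2 had differences of -0.01 and 0.10 and the co-receptor Tgfbr3 was lower in both (-1.15 and -0.98). Feedback genes and targets did not move one way. Skil (0.76 and 0.81), Tgif1 (0.81 and 1.05) and Smurf1 (0.72 and 0.47) were higher in both. The feedback inhibitor Smad7 (0.11 and 0.30) passed in neither comparison. Bambi (-0.69 and -0.16) was lower with the Tcf21-MerCreMer group alone, and the target Tgfbi was lower in both (-1.80 and -1.39). Inhbb, an activin chain (-1.38 and -1.07), Acvr2b (-1.20 and -1.43) and Lrrc32, which presents latent TGF-beta (-1.06 and -0.79), were lower in both.

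Bone morphogenetic protein (BMP) genes were higher in both for 3 of 26 tested and lower in both for 7. These were 11.5% and 26.9%, against 15.1% and 14.2% of all genes tested. The medians were -0.39 and -0.08, but 0.002 for the second after median-ratio scaling. The second lay near the -0.061 of all genes tested. Bmp4, a ligand, ranked 1558, 1737 and 1614 in the uninjured libraries, 4090, 4599 and 5460 in the infused Tcf21-MerCreMer libraries and 4404, 4521 and 3910 in the infused Pdgfra-creERT libraries. Bmp4 did not overlap between infused and uninjured libraries and differed by -1.50 ± 0.14 and -1.32 ± 0.09. Bmp2 (-2.03 and -2.07), Bmp5 (-1.59 and -1.28), Gdf10 (-1.38 and -1.08), the antagonists Chrd (-1.03 and -1.19) and Chrdl1 (-1.09 and -0.70) and the co-receptor Rgmb (-0.87 and -1.02) were lower in both. Gdf6 (1.69 and 1.80) and the receptor Bmpr1b (2.12 and 1.40) were higher in both.

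Wnt ligands and modulators were higher for 14 of 35 tested members and lower for 2 (medians 0.29 and 0.30, but -0.26 for the first on the deposited scale). Sfrp2, a secreted Frizzled-related protein, ranked 2175, 2296 and 1617 in the uninjured libraries, 146, 132 and 135 in the infused Tcf21-MerCreMer libraries and 75, 57 and 149 in the infused Pdgfra-creERT libraries. Sfrp2 did not overlap between infused and uninjured libraries and differed by 3.18 ± 0.12 and 3.73 ± 0.25. Dkk3 (1.41 and 1.67), Dkk2 (2.70 and 3.12), Sfrp1 (1.44 and 1.88) and the inhibitors Nkd1 (0.85 and 1.20) and Nkd2 (2.38 and 1.86) were also higher. Of the Frizzled receptors Fzd6 ranked 13807, 14974 and 15339 without injury, 8775, 7621 and 7216 in the infused Tcf21-MerCreMer group and 7568, 7463 and 9027 in the infused Pdgfra-creERT group (5.62 and 5.54), and Fzd2 (1.19 and 1.26), Fzd5 (2.14 and 1.33) and Fzd8 (1.92 and 1.41) were higher in both. The ligand Wnt4 (-1.66 and -1.57) and the agonist Rspo1 (-1.49 and -0.61) were lower in both, and Axin2, a target of canonical Wnt signalling, had differences of -0.39 and -0.28 without passing.

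Genes of the infused agents' own pathways and of endothelin were higher for 5 of 22 tested members and lower for 7 (medians -0.63 and -0.64). Agtr1a, the type 1 angiotensin receptor, ranked 8369, 8205 and 8278 in the uninjured libraries, 9516, 10332 and 10596 in the infused Tcf21-MerCreMer libraries and 10151, 9085 and 9493 in the infused Pdgfra-creERT libraries. It was lower in both (-1.31 ± 0.23 and -0.84 ± 0.20). Arrb1 and Arrb2, the arrestins that silence such receptors (-1.04 and -1.02 and -0.58 and -0.75), were lower in both. The alpha-1 receptor gene Adra1a ranked 10560, 10657 and 11241 without injury, 13858, 16074 and 14488 in the infused Tcf21-MerCreMer group and 12161, 12390 and 10869 in the infused Pdgfra-creERT group. It passed with the Tcf21-MerCreMer group but not with the Pdgfra-creERT group (-4.17 and -0.999).

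Ednra, the endothelin A receptor, ranked 5816, 5679 and 5801 without injury, 1887, 1684 and 2108 in the infused Tcf21-MerCreMer group and 3132, 2203 and 2712 in the infused Pdgfra-creERT group. It was higher in both (1.76 ± 0.09 and 1.33 ± 0.12). Edn1, endothelin 1, was higher in both (1.05 and 0.66). Rgs4, which shortens G-protein signals, was higher in both (3.07 and 2.56), as was Rcan1, a calcineurin inhibitor and target (0.69 and 0.30).

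In the platelet-derived, fibroblast and insulin-like growth factor families 7 of 25 tested genes were higher in both and 6 lower in both (medians 0.23 and 0.08, but -0.18 for the first on the deposited scale). Without the second uninjured library 3 were lower. Pdgfc, a ligand of the alpha receptor, ranked 13689, 13963 and 13218 in the uninjured libraries, 10463, 10242 and 10094 in the infused Tcf21-MerCreMer libraries and 10027, 10417 and 10069 in the infused Pdgfra-creERT libraries. It was higher in both (3.16 ± 0.26 and 3.24 ± 0.27) while that receptor, Pdgfra, was lower. Fgfr2 (2.97 and 3.35), Pdgfrl (1.59 and 1.39), Igf2r (1.02 and 0.77) and Igf1 were higher in both. Fgf10 (-2.4974 and -1.51) and the binding proteins Igfbp3, Igfbp4 (-1.07 and -0.35) and Igfbp6 (-0.97 and -1.04) were lower in both. Igfbp3 ranked 470, 334 and 332 without injury, 2294, 4851 and 5835 in the infused Tcf21-MerCreMer group and 4072, 5270 and 1883 in the infused Pdgfra-creERT group. Igfbp3 did not overlap between infused and uninjured libraries and differed by -3.05 ± 0.35 and -2.78 ± 0.32.

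Matrix proteases and their inhibitors were higher for 12 of 42 tested members and lower for 7 (medians 0.17 and 0.20, but -0.29 for the first on the deposited scale). Mmp14, a membrane collagenase, was higher in both (0.81 and 0.86) and Mmp2, the gelatinase it activates, had differences of 0.04 and 0.12. Adamts17 ranked 13125, 13768 and 13304 without injury, 9224, 9199 and 9551 in the infused Tcf21-MerCreMer group and 9030, 7499 and 8547 in the infused Pdgfra-creERT group (3.74 ± 0.23 and 4.31 ± 0.27). The aggrecanase Adamts4 (2.06 and 1.91) and the procollagen peptidase Adamts2 (1.03 and 1.32) were higher in both. Adamts5 (-0.91 and -1.20), Plau, urokinase (-1.46 and -2.17), and the inhibitors Timp2 (-0.99 and -0.68) and Timp3 (-0.85 and -0.45) were lower in both.

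Genes of G2 and mitosis were higher as a group: 32 of 33 tested members were higher in both and 0 lower in both (medians 2.86 and 2.39), and Nusap1 passed with the Tcf21-MerCreMer but not with the Pdgfra-creERT group (2.19 and 1.46). With 1 library left out the count was 30 to 33. Their summed share was 0.00567% to 0.00902% in the uninjured, 0.0202% to 0.0746% in the infused Tcf21-MerCreMer and 0.0161% to 0.0546% in the infused Pdgfra-creERT libraries, so they remained a small part of the RNA. Many such genes are known to share a promoter with CCAAT boxes, bound by NF-Y, and a cell cycle genes homology region, whose core TTTGAA binds the DREAM and MYB-MuvB complexes. The promoters of 3 of the 4 members with the smallest p are printed to show these letters. Each is the 250 bases before the start in RefSeq on GRCm38.p6, 5′ to 3′ along the gene, with CCAAT and TTTGAA on either strand in capitals: Cdk1 at chr10:69352913-69353162 (minus strand), Bub1b at chr2:118597961-118598210 (plus strand) and Racgap1 at chr15:99651657-99651906 (minus strand).
Cdk1: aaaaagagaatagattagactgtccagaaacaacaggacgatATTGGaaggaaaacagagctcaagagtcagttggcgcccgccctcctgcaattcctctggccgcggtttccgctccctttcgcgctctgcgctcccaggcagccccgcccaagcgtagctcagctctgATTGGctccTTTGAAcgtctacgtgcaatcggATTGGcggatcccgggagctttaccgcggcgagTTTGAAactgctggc
Bub1b: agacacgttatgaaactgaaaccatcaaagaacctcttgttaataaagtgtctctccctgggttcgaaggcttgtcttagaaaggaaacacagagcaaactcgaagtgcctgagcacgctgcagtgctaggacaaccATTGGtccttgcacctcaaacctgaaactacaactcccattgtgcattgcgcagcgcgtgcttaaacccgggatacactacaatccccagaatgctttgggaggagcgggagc
Racgap1: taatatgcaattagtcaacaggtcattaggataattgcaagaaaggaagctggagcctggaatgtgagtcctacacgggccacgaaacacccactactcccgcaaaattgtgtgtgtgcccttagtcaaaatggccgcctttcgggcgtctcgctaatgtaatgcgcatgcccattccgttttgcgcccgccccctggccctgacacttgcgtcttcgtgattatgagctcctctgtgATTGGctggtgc

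The Cdk1 window holds 3 CCAAT and 2 TTTGAA matches, and those of Bub1b and Racgap1 hold 1 CCAAT and 0 TTTGAA matches each. Of 30 such windows of 28 G2 and mitosis genes, 76.7% held CCAAT and 36.7% held TTTGAA, against 34.7% and 11.1% of 14555 windows of 11269 tested genes; with the 50 bases after the start included, TTTGAA was in 80.0% of the windows of these genes against 12.6%. In the Cdk1 window no match of one motif overlapped a match of the other. A match is a description of letters, and absence from a window says nothing of a factor.

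Cdk1, the kinase that starts mitosis, ranked 12604, 11890 and 12724 in the uninjured libraries, 9084, 7573 and 6456 in the infused Tcf21-MerCreMer libraries and 7594, 7606 and 9849 in the infused Pdgfra-creERT libraries. All 6 infused libraries lay above the uninjured ones, with differences of 3.78 ± 0.36 and 3.42 ± 0.38 (adjusted p = 0.000203 and 0.000185). Bub1b, of the spindle checkpoint (2.94 and 2.39), Racgap1, of cytokinesis (2.63 and 2.31), and Tpx2, of the spindle (2.76 and 2.32), followed. The proliferation marker Mki67 ranked 11467, 10540 and 11099 without injury, 8451, 5106 and 3718 in the infused Tcf21-MerCreMer group and 4894, 6515 and 9306 in the infused Pdgfra-creERT group. Mki67 did not overlap between infused and uninjured libraries and differed by 3.27 ± 0.50 and 2.74 ± 0.47. The third Tcf21-MerCreMer library held the best rank for Cdk1 and Mki67, and the third Pdgfra-creERT and first Tcf21-MerCreMer libraries held the lowest infused ranks, as they did for the list median (1.36 and 1.80, against 2.70 to 3.72 in the other 4).

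**Figure D4:**
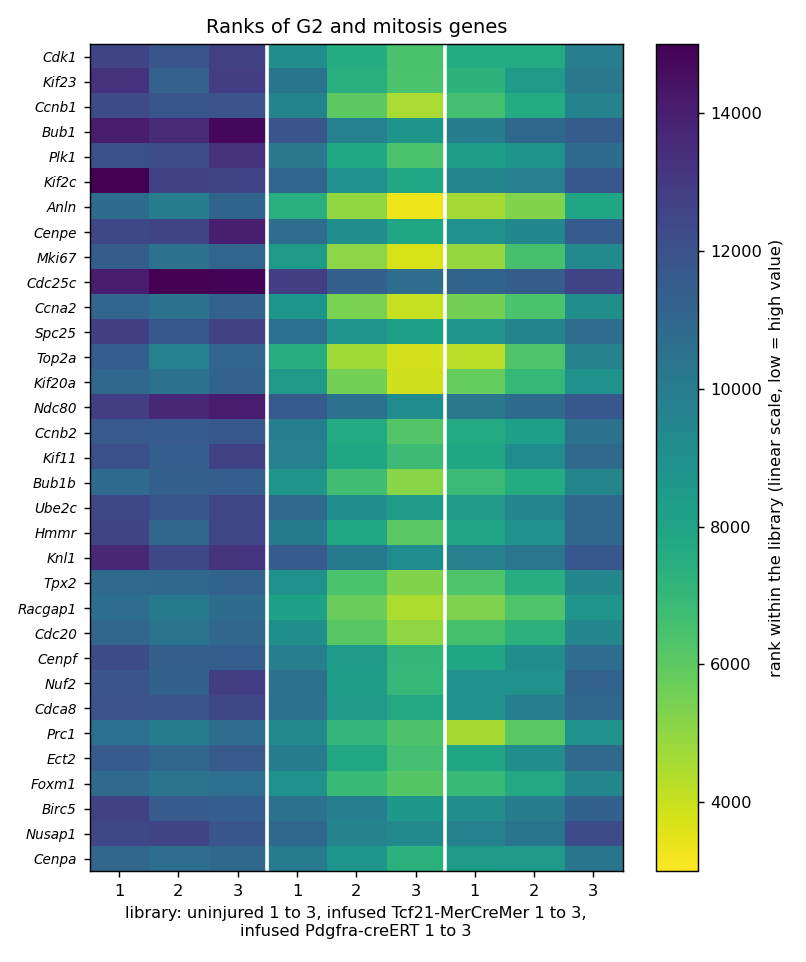
Rank of the 33 tested G2 and mitosis genes (lines) in the 9 control libraries (columns), on a linear colour scale where yellow is a high value. The infused columns are lighter than the 3 uninjured columns, and the first Tcf21-MerCreMer and the third Pdgfra-creERT columns are the darkest infused ones.

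Replication and licensing genes were higher less uniformly, for 13 of 33 tested members, with 0 lower in both (medians 0.58 and 0.45, but -0.02 for the first on the deposited scale). E2f1, an activator of S phase genes, ranked 9608, 9570 and 9994 without injury, 7698, 7013 and 7049 in the infused Tcf21-MerCreMer group and 7662, 7978 and 8059 in the infused Pdgfra-creERT group. E2f1 did not overlap between infused and uninjured libraries and differed by 1.44 ± 0.15 and 1.14 ± 0.14. Tyms (1.44 and 1.24) and Rrm2 (1.72 and 1.33), which make nucleotides, and the helicase subunits Mcm5 (1.21 and 1.00) and Mcm6 (0.80 and 0.64) were higher in both. Pcna, the sliding clamp, had differences of 0.07 and -0.03 and passed in neither comparison. Among D cyclins, their kinases and CDK inhibitors 5 of 12 were higher in both and 2 lower in both (medians 0.11 and 0.13, but -0.47 for the first on the deposited scale): Ccnd2 (1.34 and 1.11), Cdk6 (0.91 and 1.49) and the inhibitor Cdkn2b, p15 (3.32 and 2.95), were among the higher, and Cdkn1c, p57 (-1.24 and -0.98), among the lower.

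Of 20 p53 and senescence genes 13 were higher in both and 2 lower in both (medians 0.39 and 0.51, but -0.14 for the first on the deposited scale). Pmaip1, the BH3-only protein NOXA, ranked 13141, 14091 and 14939 in the uninjured libraries, 10611, 10262 and 9433 in the infused Tcf21-MerCreMer libraries and 10609, 10133 and 10499 in the infused Pdgfra-creERT libraries. Pmaip1 did not overlap between infused and uninjured libraries and differed by 3.61 ± 0.42 and 3.35 ± 0.38. Bbc3, PUMA (1.33 and 1.27), Trp53inp1 (1.09 and 1.08), Eda2r (1.48 and 1.24) and Zmat3 (1.55 and 0.92) were higher in both. Cdkn1a, p21, had differences of 0.40 and 0.50, the first of which was -0.126 on the deposited scale. Trp53 itself (-0.23 and -0.28) and Perp (-1.81 and -1.52) were lower in both.

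Immediate early genes, which respond to cell isolation as well as to stimuli, were higher for 5 of 28 tested members and lower for 8 (medians -0.23 and -0.17, but 0.02 for the second after median-ratio scaling). Without the first and the third uninjured library in turn 4 and 3 were lower. Fos, a subunit of AP-1, ranked 7, 8 and 4 in the uninjured libraries, 16, 22 and 35 in the infused Tcf21-MerCreMer libraries and 15, 19 and 13 in the infused Pdgfra-creERT libraries. Fos did not overlap between infused and uninjured libraries and differed by -1.52 ± 0.27 and -1.15 ± 0.22. Jun (-0.79 and -0.65), Junb (-0.92 and -0.72), Ier2 (-0.93 and -0.96) and Egr1 (-0.77 and -0.74) were lower in both, while Egr2 (1.64 and 1.47), Egr3 (1.31 and 0.98) and Gadd45b (1.01 and 1.33) were higher. Heat shock chaperones were higher for 1 of 20 and lower for 6 (medians -0.14 and -0.29); Hspa8 (-0.48 and -0.63), Dnaja1 (-0.41 and -0.52), Chordc1 (-0.43 and -0.41) and the mitochondrial Hspd1 (-0.39 and -0.47) were lower. The part of handling in these values was not tested.

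Genes of the endoplasmic reticulum stress response were higher for 7 of 32 tested members and lower for 4 (medians 0.30 and 0.12, but -0.13 for the first on the deposited scale). These were 21.9% and 12.5%, against 15.1% and 14.2% of all genes tested. Without the first and the third uninjured library in turn 3 and 4 were higher. The disulfide isomerase Pdia6 (0.73 and 0.53), Pdia4 (0.86 and 0.53) and Sesn2, a stress-induced sestrin (1.25 and 1.18), were higher in both. Atf4 (-0.81 and -0.69), Herpud1 (-0.83 and -0.75), Trib3 (-1.03 and -1.39) and Xbp1 (-0.42 and -0.59) were lower in both, and Hspa5, the chaperone BiP, had differences of 0.19 and -0.23.

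Cytoplasmic ribosomal protein genes had small negative medians. Of 77 tested, 9 were lower in both (11.7%, against 14.2% of all genes tested) and 0 higher in both (medians -0.34 and -0.14). In the comparison with the Tcf21-MerCreMer group 42 of 77 were lower, against 19.4% of all genes tested. With the Pdgfra-creERT group 12 of 77 were lower, a share below the 20.8% of all genes tested. Rpl37 (-0.68 and -0.49), Rpl21 (-0.62 and -0.42), Rps23 (-0.59 and -0.39) and Rpl14 (-0.46 and -0.29) were among the 9. Nuclear respiratory chain subunits were lower in both for 20 of 60 and higher for 0 (medians -0.29 and -0.27), among them the complex I subunits Ndufa5 (-0.76 and -0.77), Ndufb10 (-0.61 and -0.60), Ndufb9 (-0.49 and -0.50) and Ndufb4 (-0.46 and -0.62). Without the first uninjured library the counts lower in both were 5 and 11 in these families, and without the second the respiratory count was 12.

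Transcripts of both families are short, with median lengths of 628.5 and 588.25 bases over their members. Across 13474 tested genes matched to the annotation (90.78%), the median difference was -0.08 and -0.105 in the shortest 20% (up to 753 bases) and 0.116 and 0.059 in the longest (from 2786.5 bases), and Spearman's rho of length with the difference was 0.1 and 0.103, across genes that are not independent. The part of length in the values of the ribosomal and respiratory genes was not tested.

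Metabolic lists showed no common direction. Higher and lower in both were 17.4% and 17.4% of glycolysis, 20% and 4% of cholesterol and 10% and 25% of lipid genes. Over all genes tested these shares were 15.1% and 14.2%. Glycolysis and glucose uptake genes were higher for 4 of 23 and lower for 4 (medians 0.16 and 0.03, but -0.45 for the first on the deposited scale and -0.01 for the second on the deposited scale): the lactate exporter Slc16a3 (1.45 and 1.25) and Pfkl (1.04 and 1.00) were higher, and Ldhb (-1.13 and -0.86) and Aldoa (-0.58 and -0.60) lower. Without the first uninjured library 2 were lower. Cholesterol genes were higher for 5 of 25 and lower for 1 (medians -0.02 and 0.05, but -0.04 for the second on the deposited scale), with Cyp51 (0.75 and 0.68) and Scap (0.89 and 0.92) higher and Sc5d (-1.07 and -0.94) lower. The count higher was 1 without the second uninjured library, 2 without either other uninjured or the second Tcf21-MerCreMer library and 3 without the second Pdgfra-creERT library. Lipid storage and fatty acid genes were higher for 2 of 20 and lower for 5 (medians -0.20 and -0.28): Lpl, lipoprotein lipase (-1.24 and -1.22), Apoe (-2.52 and -1.34) and Cd36 (-6.60 and -1.90) were lower and Fasn (0.73 and 0.76) higher. Cd36 was listed at 0 in 2 Tcf21-MerCreMer libraries, so its first difference rests on zeros. Without the first or the third uninjured library 3 lipid genes were lower.

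Chemokines and cytokines were higher for 4 of 35 tested members and lower for 10 (medians -0.02 and -0.10). Without the second Tcf21-MerCreMer library 2 were higher. Ccl11, eotaxin, ranked 2170, 1877 and 1989 in the uninjured libraries, 6554, 9267 and 10742 in the infused Tcf21-MerCreMer libraries and 10187, 11996 and 8285 in the infused Pdgfra-creERT libraries. Ccl11 did not overlap between infused and uninjured libraries and differed by -3.38 ± 0.56 and -4.32 ± 0.61. Ccl2 (-1.11 and -1.36), Ccl7 (-1.85 and -2.18), Ccl8 (-1.91 and -2.59) and Cxcl1 (-1.66 and -1.15) were lower in both, and Cx3cl1, fractalkine (2.05 and 1.97), Ccl5 (2.04 and 2.84) and Cxcl9 (1.53 and 2.28) higher. Il6, interleukin 6, and Il11, interleukin 11, a cytokine of fibroblast activation, had differences of 0.64 and 0.92 and 0.46 and 0.36 and passed in neither comparison.

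Complement genes were higher for 5 of 19 tested members and lower for 7 (medians 0.23 and 0.31, but -0.23 for the first on the deposited scale). C7, of the membrane attack complex (-2.86 and -1.85), the inhibitor Cd55 (-2.96 and -0.97) and C3 (-1.69 and -1.04) were lower in both; Cfb (0.87 and 1.12) and Cfi (2.98 and 3.38) were higher. Interferon-induced genes were higher for 9 of 34 and lower for 6 (medians -0.11 and -0.001, but 0.04 for the second after median-ratio scaling), with Ifi44 (2.46 and 2.45), Isg15 (1.33 and 1.21) and Irf7 (0.82 and 0.94) higher and Ifi35 (-0.70 and -0.84) lower. Without the second uninjured library 5 interferon-induced genes were higher. Circadian clock genes were higher for 2 of 19 and lower for 5 (medians -0.28 and -0.20): Bhlhe41 (1.93 and 1.09) was higher and Hlf (-0.92 and -1.35), Rora (-3.05 and -0.45) and Per2 (-6.35 and -1.03) lower. Per2, listed at 0 in 1 Tcf21-MerCreMer library, and Rora were several units lower in that table alone. The hour of sorting is not in the labels.

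Of 41 transcription factors of cardiac and mesenchymal lineages 13 were higher in both and 8 lower in both (medians 0.18 and 0.01, but -0.32 for the first on the deposited scale and -0.05 for the second on the deposited scale). Runx1 ranked 11116, 11182 and 10549 in the uninjured libraries, 2311, 1649 and 1012 in the infused Tcf21-MerCreMer libraries and 2110, 1976 and 3124 in the infused Pdgfra-creERT libraries, which separated infused from uninjured libraries wholly. Sox4 (2.04 and 1.66), Prrx2 (1.47 and 1.16), Snai2 (0.61 and 0.40) and Tbx20 (0.50 and 0.85) were higher in both. Osr1 (-1.69 and -1.20), Klf15 (-2.02 and -1.26), Hand2 (-0.57 and -0.80) and Foxo1 (-0.91 and -0.55) were lower in both, as was Tcf21.

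The largest differences shared by both infused groups, among genes with a mean of at least 50 and infused means within 1 of each other, included several genes outside the lists. That mean holds 6 infused and 3 uninjured libraries, so a gene can meet it through the infused libraries alone. Cdh3, H19, Nrg1 and Col7a1 (uninjured median rank 15406) did so, and other rises may have. C1qtnf3, a secreted collagen-like protein of cartilage, ranked 11153, 11176 and 11922 in the uninjured libraries, 147, 90 and 75 in the infused Tcf21-MerCreMer libraries and 135, 149 and 249 in the infused Pdgfra-creERT libraries. C1qtnf3 differed by 8.94 ± 0.26 and 8.30 ± 0.24. Cdh3, P-cadherin, ranked 15089, 14615 and 14921 in the uninjured libraries, 4021, 3272 and 2119 in the infused Tcf21-MerCreMer libraries and 3499, 2676 and 3754 in the infused Pdgfra-creERT libraries. Cdh3 differed by 7.82 ± 0.26 and 7.73 ± 0.21. H19, an imprinted long non-coding RNA of fetal tissue, ranked 15847, 16089.5 and 15454 in the uninjured libraries, 6028, 7097 and 5436 in the infused Tcf21-MerCreMer libraries and 8504, 7128 and 7377 in the infused Pdgfra-creERT libraries. H19 differed by 8.15 ± 0.60 and 7.48 ± 0.57. Its rank of 16089.5 is the shared rank of genes at 0 in the second uninjured library. The size of the H19 differences therefore rests on few normalized counts or none without injury. None of these 3 genes reached above rank 11153 in an uninjured library or fell below rank 8504 in an infused one.

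Kif26b, a kinesin-family protein (7.25 and 6.87), Scube2, a secreted protein that helps release Hedgehog (7.22 and 6.48), Ccn4 (WISP1, 6.17 and 6.21), Nrg1, neuregulin 1 (6.66 and 6.18), and Ptprv, a receptor-type phosphatase (6.74 and 6.23), completed the 12 largest rises with Cthrc1, Ddah1, P4ha3 and Col7a1. Nrg1, a ligand of ErbB receptors, ranked 14199, 15373 and 15990 without injury, 8353, 7299 and 6015 in the infused Tcf21-MerCreMer group and 7968, 8778 and 7976 in the infused Pdgfra-creERT group, where the uninjured libraries hold normalized counts of at most 13.0.

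The 12 largest falls were led by Ces1d, a carboxylesterase of lipid metabolism, which ranked 403, 694 and 409 in the uninjured libraries, 4038, 8089 and 10948 in the infused Tcf21-MerCreMer libraries and 6983, 10122 and 4566 in the infused Pdgfra-creERT libraries. Ces1d differed by -4.53 ± 0.83 and -4.17 ± 0.58. Blnk, an adaptor best known from B cells, ranked 3809, 4209 and 4618 in the uninjured libraries, 9614, 10600 and 12612 in the infused Tcf21-MerCreMer libraries and 10858, 12192 and 9178 in the infused Pdgfra-creERT libraries. Blnk differed by -3.88 ± 0.62 and -3.74 ± 0.54. Ntf3, neurotrophin 3, ranked 8491, 8405 and 9265 in the uninjured libraries, 11950, 14147 and 14138 in the infused Tcf21-MerCreMer libraries and 12638, 13168 and 11711 in the infused Pdgfra-creERT libraries. Ntf3 differed by -4.07 ± 0.49 and -3.34 ± 0.33. None of these 3 genes overlapped between infused and uninjured libraries. Adh1, alcohol dehydrogenase (-2.96 and -3.12), Ppl, periplakin (-3.18 and -2.82), Chp2, a calcineurin-like protein (-2.88 and -2.96), and Il11ra2 (-3.68 and -3.52), whose reads are uncertain because it has a near-identical copy, completed them with Inmt, Ccl11, Smoc2, Igfbp3 and Efemp1.

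Markers of other cell types were measured beside these results. Mural cell (pericyte and smooth muscle) markers were lower in both for 11 of 19 tested members and higher for 3 (medians -0.98 and -1.47), with a summed share of 0.19% to 0.201% in the uninjured, 0.153% to 0.167% in the infused Tcf21-MerCreMer and 0.13% to 0.154% in the infused Pdgfra-creERT libraries. Kcnj8, a potassium channel of pericytes, ranked 2635, 2625 and 2895 in the uninjured libraries, 6799, 8085 and 8825 in the infused Tcf21-MerCreMer libraries and 10584, 11627 and 10686 in the infused Pdgfra-creERT libraries. The uninjured libraries were highest and the Pdgfra-creERT libraries lowest, without overlap, and the differences were -2.28 ± 0.23 and -4.54 ± 0.25. Rgs5 (-0.98 and -3.50), Higd1b (-2.07 and -5.41), P2ry14 (-2.33 and -3.85), Abcc9 (-1.83 and -3.02) and Vtn (-2.04 and -5.27) were lower in both, whereas Pdgfrb was higher in both (0.47 and 0.37) and Notch3 had differences of 0.07 and -0.25.

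The infused groups differed from each other at 6 of the 19 mural markers, against 4.16% of all genes tested. Among them Myh11, smooth muscle myosin, ranked 11402, 9681 and 9339 without injury, 10135, 9877 and 10425 in the infused Tcf21-MerCreMer group and 13272, 13358 and 13721 in the infused Pdgfra-creERT group. Myh11 was past the threshold in the comparison with the Pdgfra-creERT group (0.07 and -3.06). Contractile genes are shared with mural cells. Tagln and Acta2 were higher in both, and of 19 mural markers 11 were lower in both and 3 higher. The part of mural cells in the differences was not tested.

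Myeloid markers were higher in both for 3 of 21 tested members and lower for 1. These were 14.3% and 4.76%, against 15.1% and 14.2% of all genes tested. The medians were 0.34 and 1.13, but -0.03 for the first on the deposited scale. Lyz2, lysozyme of macrophages, ranked 9130, 9444 and 9891 in the uninjured libraries, 8195, 8035 and 7442 in the infused Tcf21-MerCreMer libraries and 6333, 5931 and 4873 in the infused Pdgfra-creERT libraries (0.97 ± 0.18 and 1.93 ± 0.19). With the Pdgfra-creERT group 12 of 21 were higher, against 18.5% of all genes tested, among them C1qb (1.61), Csf1r (0.98) and Tyrobp (1.27). Their summed share was 0.00542% to 0.00614% in the uninjured, 0.00462% to 0.00548% in the infused Tcf21-MerCreMer and 0.00824% to 0.0133% in the infused Pdgfra-creERT libraries. Their part in the values of the chemokine and complement genes was not tested.

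**Figure D5:**
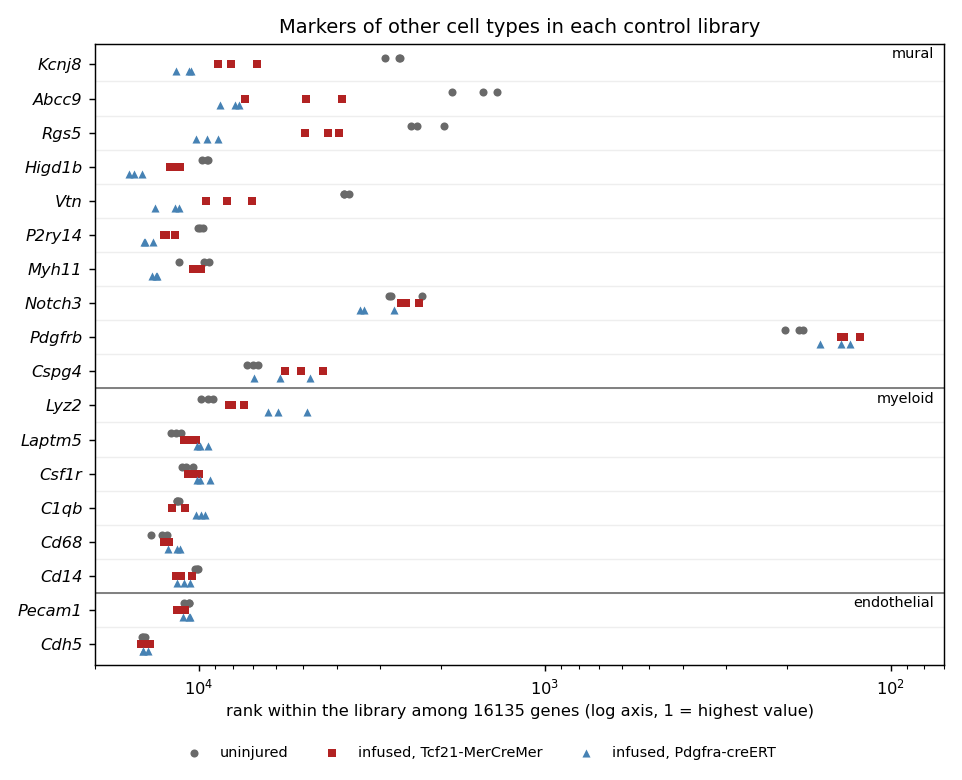
Rank of mural, myeloid and endothelial marker genes in each of the 9 control libraries among 16135 genes, on a log axis with high values at the right; each point is 1 library. Kcnj8, Abcc9, Rgs5, Higd1b, Vtn and P2ry14 shift left from uninjured to infused libraries, and Pdgfrb shifts right. The plotted myeloid and endothelial markers stay at or below rank 4873 (Lyz2) in every library. Of the endothelial list only Pecam1 and Cdh5 are plotted.

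Endothelial markers were higher in both for 2 of 20 and lower for 3 (10% and 15%, against 15.1% and 14.2% of all genes tested). They had medians of 0.21 and 0.24, but -0.08 for the first on the deposited scale. Their summed share was 0.0709% to 0.0739% in the uninjured, 0.0438% to 0.0548% in the infused Tcf21-MerCreMer and 0.0458% to 0.0544% in the infused Pdgfra-creERT libraries, lower without overlap although the medians were above 0. The defining genes Pecam1 (median ranks 10700, 11346 and 10706) and Cdh5 (median ranks 14570, 14443 and 14554) passed in neither comparison, Sox18 (3.58 and 3.55) and Ptprb (1.38 and 1.74) were higher and Esam (-1.47 and -3.64), Tek (-1.20 and -0.78) and Fabp4 (-1.28 and -1.74) lower. Cardiomyocyte markers were higher for 2 of 20 and lower for 3 (10% and 15%, medians -0.06 and -0.03). Their summed share was 0.0369% to 0.0393%, 0.0369% to 0.0426% and 0.0363% to 0.0402% in the 3 groups. Nppa, atrial natriuretic peptide (2.15 and 2.58), and Tnnt2 (1.00 and 0.81) were higher and Myl3 (-1.87 and -1.22) and Mb (-0.81 and -0.71) lower. Schwann and neuronal markers were higher for 1 of 8 (S100b, 1.40 and 1.01) and lower for 1 (Pmp22, -0.90 and -0.83), lymphoid markers higher for 1 of 2 (Cd3d, 0.89 and 0.99), erythroid and platelet markers lower for 1 of 3 (Pf4, -1.48 and -1.34), and the 1 tested mesothelial marker, Cldn15, was lower with the Pdgfra-creERT group but did not pass with the Tcf21-MerCreMer group (0.26 and -0.70). All 3 tables named only 3 of 20 lymphoid, 3 of 14 mesothelial and epicardial and 7 of 16 erythroid and platelet markers. None of the markers that all 3 tables name was at 0 in all 9 libraries, which says nothing of the markers left out. Of 4 tested Y-linked and X-inactivation genes 3 were lower with the Tcf21-MerCreMer group and 1 with the Pdgfra-creERT group (medians -1.07 and -0.04). The shares of all genes tested that were lower in these comparisons were 19.4% and 20.8%. The infused groups differed at 2 of these 4 genes, against 4.16% of all genes tested. The part of sex in these values was not tested.

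Some genes sat at unlike levels in the 2 infused tables, which bears on the size of their differences. Whether the 3 tables rest on the same annotation is not given in the sources used here, and its part in these values was not tested. Mfap2, a microfibril glycoprotein, ranked 1973, 1787 and 2675 in the uninjured libraries, 13959, 16107 and 15282 in the infused Tcf21-MerCreMer libraries and 614, 454 and 511 in the infused Pdgfra-creERT libraries. Fbln2, fibulin 2, ranked 18, 20 and 20 in the uninjured libraries, 2573, 3115 and 2161 in the infused Tcf21-MerCreMer libraries and 13, 20 and 17 in the infused Pdgfra-creERT libraries. Tgfbr1, the TGF-beta type I receptor, ranked 970, 950 and 803 in the uninjured libraries, 12170, 11614 and 12766 in the infused Tcf21-MerCreMer libraries and 707, 691 and 633 in the infused Pdgfra-creERT libraries. Each was far lower in the Tcf21-MerCreMer table than in both others, and the infused groups differed by 10.90, 5.80 and 7.39.

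Actn4 (-7.25 and 0.43), Ecm2 (-6.92 and -0.12), Bmp1 (-3.36 and 0.34) and Mcam (-7.32 and 0.17) had the same pattern and were not called in the same direction in both. Of the 231 genes whose infused means differed by over 3, 203 annotated genes were higher in the Pdgfra-creERT table, all protein coding. Another 18 annotated genes were higher in the Tcf21-MerCreMer table, 33.3% of them protein coding. Of the 72 genes that passed in opposite directions, 62 were lower with the Tcf21-MerCreMer and higher with the Pdgfra-creERT group, and the infused groups differed at 70 of the 72. Col8a2, a short-chain collagen, was one of them and ranked 7531, 6526 and 6534 in the uninjured libraries, 10559, 9674 and 9717 in the infused Tcf21-MerCreMer libraries and 261, 166 and 287 in the infused Pdgfra-creERT libraries. Table and Cre line cannot be told apart in these differences.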

How the data were processed

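RNA of flow-sorted cardiac fibroblasts was sequenced after SMART-seq v4 low-input cDNA synthesis, per the labels' protocols. The authors deposited 3 tables, each normalized on its own, whose unit is a normalized signal: estimated counts per gene divided by size factors, judged from the values and the tables' names. The submitters' processing notes list kallisto, DESeq2 and GRCm38. No version and no annotation is given in the sources used here. Library sums of all listed genes were 28218003 to 40970391, and genes listed in all 3 tables held 97.6% to 99.5% of them. Depth in reads is unknown, so no interval of counting error is given.

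The 9 control libraries were grouped by their labels. Genes listed in all 3 tables (16135) were ranked within each library. Each rank received the mean log2(value + 1) of the 9 libraries at that rank, and genes with a mean of at least 10 (14843) were tested. Each comparison was a two-sided limma fit (version 3.58.1, R 4.3.3) of its own libraries without covariates, using lmFit and a trended eBayes. Genes passed at a Benjamini-Hochberg adjusted p below 0.05. The procedure was tested on simulated data.

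Gene lists (44 lists, 1231 genes) are described by counts and medians. The naming rule took a panel of 14 genes, the 12 largest shared rises and 12 largest shared falls with a mean of at least 50, and per list up to 4 members of smallest p. Not every gene it took is described. Samples, lists and rules were chosen with earlier results of these data known. Promoters are RefSeq windows on GRCm38.p6, matched by symbol. Alternatives varied the scale, pseudocount, filter, variance model, library weights and replicate block and left out each library in turn. Libraries of mice with loss or gain of Tcf21 were not used here.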

Additional observations from a re-analysis of the deposited data

Results flagged for a closer look

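The infused groups differed from each other (infused Pdgfra-creERT minus infused Tcf21-MerCreMer, rank-matched log2 units, limma adjusted p below 0.05) at 29 of the genes named in the text, so the size of their difference from the uninjured libraries depends on the infused group. Their table and Cre line cannot be told apart.

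Among matrix and adhesion genes the difference was 10.90 for Mfap2, 5.80 for Fbln2, 6.80 for Ecm2, 6.54 for Col8a2, 3.70 for Bmp1, 2.09 for Chad and 1.23 for Eln, all higher in the Pdgfra-creERT libraries. Col15a1 (-0.86), P4ha2 (-0.48) and Fap (-0.72) were lower there. Among actin-linked genes Actn4 differed by 7.67 and Actb by -2.51. Tgfbr1, the type I TGF-beta receptor, differed by 7.39.

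Among genes high in resting fibroblasts, Hsd11b1 differed by 8.13, Abca8b by 1.70, Igfbp4 by 0.73 and Tcf21 by 1.06. Mural and vascular genes were lower in the Pdgfra-creERT libraries at Higd1b (-3.34), Vtn (-3.24), Myh11 (-3.13), Rgs5 (-2.52), Kcnj8 (-2.27) and Esam (-2.17), and higher there at Mcam (7.49). The remaining differences were 2.60 for the clock receptor Rora, 1.99 for the complement inhibitor Cd55, 0.96 for lysozyme Lyz2, -0.96 for the mesothelial marker Cldn15 and -0.64 for the p53 target Zmat3. With 1 of the 6 infused libraries left out in turn, 18 of these 29 differences passed each time. Abca8b, Actb, Mfap2, Fbln2, Eln and Myh11 were among them, while Chad, Igfbp4 and Zmat3 passed in 1 of the 6 and Tcf21 in 2 of the 6.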

How the results depend on the processing

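Of 4339 genes that passed in both comparisons in 1 direction, 3094 did so on the deposited scale and 3786 with the replicate block, and 0 passed in the other direction under any alternative run. Deviations of same-numbered libraries correlated by 0.033 to 0.08 between uninjured and infused Tcf21-MerCreMer libraries, weak values that all lay above those of other pairs (-0.06 to 0.027). Between uninjured and infused Pdgfra-creERT libraries they correlated by -0.067 to 0.069 (other pairs -0.088 to 0.082). Between the infused groups they correlated by -0.181 to 0.003 (other pairs -0.171 to 0.186). The numbers were not taken to pair the libraries in the main fits, and whether they do is not settled by these values. On the deposited scale 9958 genes passed with the Tcf21-MerCreMer group, 8137 between the infused groups, 1027 higher in both and 3576 lower in both. With a difference of at least 1 (chosen after seeing the data) the counts were 2355, 1958 and 409 in the 3 comparisons, 866 higher in both and 559 lower in both. Between the infused groups 213 passed without genes whose infused groups differ by over 2, 1293 with library weights and 389 with the replicate block. The replicate block gave 5727 and 5191 genes in the comparisons with the uninjured libraries, and 2013 and 1878 in both. The cause of these shifts was not tested.

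Leaving out 1 library gave 4323 to 6565 and 4359 to 6083 genes in the comparisons with the uninjured libraries, 379 to 686 between the infused groups, 1724 to 2244 higher in both and 1314 to 2236 lower in both. The count lower in both was 1314 without the first and 1341 without the second uninjured library, and the count between the infused groups 397 without the second Tcf21-MerCreMer, and 379 and 382 without the first and second Pdgfra-creERT library. With 1 library left out, 2 to 19 of 77 counts of list members moved by over 1.5 times, most without the first uninjured library. Counts of 3 or fewer members moved there by 1 to 3 members. Of the same 77 counts, 33 moved on the deposited scale, 14 on the percentile scale, 14 without the variance trend and 11 after median-ratio scaling. With a difference of at least 1, 56 moved. No panel gene lost its call in a comparison with the uninjured libraries when 1 library was left out. On the deposited scale the difference with the Tcf21-MerCreMer group changed sign for Ccn5 (-0.402), Cdkn1a (-0.126), Fap (-0.324), Notch3 (-0.461), Pcna (-0.517) and Sox9 (-0.155), and that of P4ha2 between the infused groups was 0.01. The tables give no read depth, and low ranks rest on few normalized counts, so differences of genes near 0 in a table are the least precise.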
